A study of Homo sapiens with 4 samples.

Results

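Transcript levels of 46 core regulators of the cell division and transcription cycles were examined in TE5, a human oesophageal squamous cell carcinoma line, with and without overexpression of the transcription factor ETS1. The set comprised the D-type and E-type cyclins, cyclin F, the cyclins and cyclin-dependent kinases (CDKs) that act on RNA polymerase II, the CDK inhibitors, the retinoblastoma (RB) proteins and the E2F and DP transcription factors. Members were chosen by gene name, and all 46 were found among the 55764 gene names of the expression table. The study sequenced bulk RNA from 2 libraries of cells carrying an ETS1 vector driven by a CMV promoter and from 2 libraries of cells carrying the empty backbone, whose genotype is labelled WT. Both vectors had been packaged into lentivirus in HEK293T cells for infection of TE5. The labels do not say whether each line is a clone or a pool, nor whether the replicate numbers mark separate infections or cultures, so p-values measure only the spread between these libraries.

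A cyclin binds and activates a CDK. D-type cyclins act with CDK4 and CDK6, and E-type cyclins with CDK2, to phosphorylate RB, which then releases E2F factors to switch on genes for DNA synthesis. INK4 proteins block CDK4 and CDK6, CIP/KIP proteins bind cyclin-CDK complexes more broadly, and the SCF ligase with its receptor SKP2 marks the CIP/KIP protein p27 for destruction. A separate branch, with CDK7, CDK8, CDK9, CDK12 and CDK13, phosphorylates RNA polymerase II or its regulators, and loss of INK4 or gain of D-type cyclin activity is common in squamous carcinomas.

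Reads recovered from the values numbered 40356723 and 44119604 in the controls and 57269984 and 56502875 in the ETS1 libraries, so the ETS1 libraries were 1.35 times deeper. ETS1 itself had 0.491 and 0.509 FPKM in the controls and 1.84 and 1.87 FPKM in the ETS1 libraries, so the labels held for the overexpressed gene. The squamous label was not borne out by marker transcripts: of 7 squamous markers only SOX2 averaged at least 1 FPKM. KRT5, KRT14, KRT6A and TP63 were at 0 in each control, and none of the 4 exceeded 0.0165 FPKM in either ETS1 library. Of the simple epithelial markers KRT8, KRT18, EPCAM and CDH1, 3 of 4 had a mean of at least 1 FPKM. Immune and endothelial markers were at most 0.0446 FPKM in each library, while the fibroblast marker COL1A1 had 2.17 and 2.06 FPKM in the controls and 2.81 and 2.88 FPKM in the ETS1 libraries with COL1A2 listed at 0 in both controls.

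All 46 regulators were expressed, with a mean of at least 1 FPKM (fragments scaled by gene length and library size), and all were therefore tested. Their levels spanned 1.66 FPKM for CDKN1C to 214 FPKM for CKS2 in the first control library, and their median there was 12.8 FPKM against 6.17 FPKM for all tested genes. At a limma adjusted p under 0.05, over all 14306 genes tested, 36 of the 46 were called, 23 higher and 13 lower in the ETS1 libraries. Of all tested genes 59.1% were called, 30.7% higher and 28.4% lower. The members' median log2 change was 0.12 and that of all tested genes 0.016. For 25 members both ETS1 values lay above both controls and for 16 both lay below, which was the case for 43.1% and 38.9% of tested genes, or 82.0% in either direction. An FPKM ratio of at least 1.5 in either direction, with a call, was reached by 7 of the 46, against 12.6% of tested genes. In a bulk sample fewer cells in a phase of the cycle and less RNA per cell cannot be told apart.

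**Figure D1:**
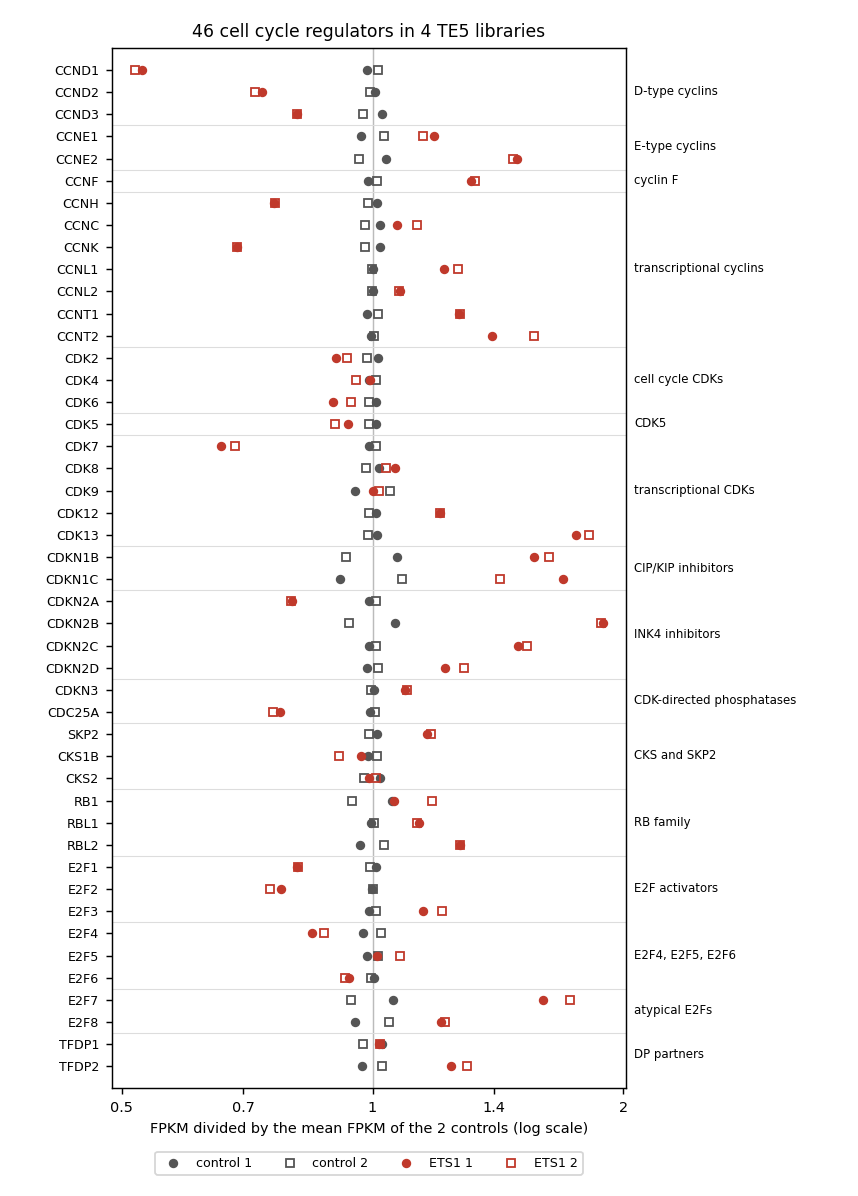
FPKM of each regulator in each library divided by the mean of the 2 controls (log axis), ordered by role; grey points are controls and red points ETS1 libraries. Red points lie left of the controls for all 3 D-type cyclins and right of them for both E-type cyclins, both CIP/KIP inhibitors and 3 of 4 INK4 inhibitors.

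The D-type cyclins, which link growth signals to the cell cycle, were all lower in the ETS1 libraries. CCND1 (cyclin D1; chromosome 11, 69641087 to 69654474, plus strand, GENCODE 29 on GRCh38, as for all positions here) had 7.10 and 7.32 FPKM in the controls and 3.81 and 3.74 FPKM in the ETS1 libraries. The groups stood well apart, 1.91-fold lower with ETS1, and the log2(FPKM + 1) change was -0.78 (SE 0.038, limma adjusted p 0.000482), the largest in size of the 46. All changes given here without a unit are differences on this log2 scale, ETS1 minus control. CCND2 (cyclin D2; chromosome 12, 4273772 to 4305350, plus strand) had 18.3 and 18.1 FPKM in the controls and 13.4 and 13.2 FPKM in the ETS1 libraries, a change of -0.43 (SE 0.029, limma adjusted p 0.000745). It was the most abundant D-type cyclin in all 4 libraries. CCND3 (cyclin D3; chromosome 6, 41934933 to 42050357, minus strand) had 8.84 and 8.40 FPKM in the controls and 6.99 and 6.99 FPKM in the ETS1 libraries, a change of -0.27 (SE 0.038, limma adjusted p 0.00413). Summed FPKM of the 3 genes was 34.3 and 33.8 in the controls and 24.2 and 23.9 in the ETS1 libraries, 1.42-fold lower with ETS1. Within that sum the share of CCND1 was 21.2% ± 0.66 in the controls and 15.7% ± 0.059 in the ETS1 libraries (SD, n = 2 each), and the share of CCND3 was 25.3% ± 0.69 in the controls and 29.1% ± 0.28 in the ETS1 libraries (SD, n = 2 each). The groups did not overlap for these shares. Since the smallest two-sided p of an exact permutation test is 0.33 in a design of this size, sums and shares are given here as descriptions.

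The kinases that D-type cyclins activate moved little. CDK4 had 23.4 and 23.8 FPKM in the controls and 23.4 and 22.5 FPKM in the ETS1 libraries, overlapping between groups, with a change of -0.037 (SE 0.032, limma adjusted p 0.367). This value is uncertain because 43.2% of the exon bases of CDK4 are also exons of TSPAN31 on the opposite strand, whether the reads were counted by strand is not given in the sources used here, and TSPAN31 rose by 0.28. CDK6 had 6.15 and 6.04 FPKM in the controls and 5.46 and 5.74 FPKM in the ETS1 libraries. Both ETS1 values were lower, but the change of -0.10 (SE 0.04, limma adjusted p 0.0769) did not pass. It passed under 4 of 13 alternatives, one of them the authors' deposited table (-0.14, adjusted p 0.025), with adjusted p between 0.0173 and 0.341 over all of them. CDK4 made up 79.5% ± 0.43 in the controls and 80.4% ± 0.98 in the ETS1 libraries (SD, n = 2 each) of the summed FPKM of CDK4 and CDK6.

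Cyclins of the step that follows, which activate CDK2 at the start of DNA synthesis, moved the other way. CCNE2 (cyclin E2; chromosome 8, 94879770 to 94896678, minus strand) had 2.46 and 2.28 FPKM in the controls and 3.53 and 3.50 FPKM in the ETS1 libraries, a change of 0.42 (SE 0.049, limma adjusted p 0.00237). It shares 37.1% of its exon bases with INTS8 and AC087752.4 together on the opposite strand, and INTS8 had a change of -0.011 (SE 0.04, limma adjusted p 0.822). CCNE1 (cyclin E1; chromosome 19, 29811898 to 29824308, plus strand) had 12.9 and 13.7 FPKM in the controls and 15.8 and 15.3 FPKM in the ETS1 libraries, a change of 0.21 (SE 0.042, limma adjusted p 0.0112) that lost the threshold without the first ETS1 library (adjusted p 0.0619, in a span of 0.00245 to 0.0619 over the alternatives). In each library CCNE1 was the more abundant of the pair, and the share of CCNE2 was 15.1% ± 1.3 in the controls and 18.4% ± 0.24 in the ETS1 libraries (SD, n = 2 each). The ratio of CCNE1 to CCND1 in FPKM was 1.82 and 1.88 in the controls and 4.15 and 4.09 in the ETS1 libraries. These 4 ratios did not overlap between groups.

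CDK2, the kinase of the E-type cyclins, had 37.7 and 36.5 FPKM in the controls and 33.5 and 34.6 FPKM in the ETS1 libraries, and its change of -0.12 (SE 0.032, limma adjusted p 0.0289) was lost under 7 of 13 alternatives, among them quantile normalization (-0.0045, adjusted p 0.914; span 0.00527 to 0.914). CDC25A (chromosome 3, 48157146 to 48188402, minus strand) encodes a phosphatase that removes inhibitory phosphates from CDK2 and CDK1. It had 42.6 and 43.3 FPKM in the controls and 33.2 and 32.6 FPKM in the ETS1 libraries, a change of -0.37 (SE 0.027, limma adjusted p 0.00083). CDKN3, whose product is a phosphatase that acts on the activating site of CDK2, had 38.9 and 38.5 FPKM in the controls and 42.3 and 42.6 FPKM in the ETS1 libraries. Its rise of 0.13 (SE 0.026, limma adjusted p 0.0107) was lost under 3 of 13 alternatives, namely in the authors' deposited table (adjusted p 0.0837) and without the first or the second ETS1 library (0.0643 and 0.0797; span 0.00218 to 0.0837). Quantile normalization moved it to 0.24. CCNF (cyclin F; chromosome 16, 2429394 to 2458854, plus strand) is an F-box protein that binds substrates of the SCF ligase and activates no CDK. It had 7.66 and 7.87 FPKM in the controls and 10.2 and 10.3 FPKM in the ETS1 libraries, a change of 0.36 (SE 0.033, limma adjusted p 0.00133).

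Both CIP/KIP inhibitors in the set were higher with ETS1. CDKN1B (p27; chromosome 12, 12715058 to 12722371, plus strand) had 11.6 and 10.1 FPKM in the controls and 16.9 and 17.6 FPKM in the ETS1 libraries, a ratio of 1.60 and a change of 0.63 (SE 0.069, limma adjusted p 0.00197). The controls differed from each other by more than the ETS1 libraries did, yet both lay well below them. CDKN1C (p57; chromosome 11, 2883213 to 2885773, minus strand), the least abundant member in the controls, had 1.66 and 1.98 FPKM in the controls and 3.08 and 2.59 FPKM in the ETS1 libraries. These values rest on 174 and 226 control reads and 457 and 379 ETS1 reads. Its change was 0.44 (SE 0.091, limma adjusted p 0.0127), and it lost the threshold with no filter on low values (adjusted p 0.069, span 0.00122 to 0.069). The remaining gene of this family, CDKN1A (p21), is no member of the set and was named after its values were seen; it had 38.4 and 36.5 FPKM in the controls and 51.4 and 49.6 FPKM in the ETS1 libraries, a change of 0.42 (SE 0.037, limma adjusted p 0.0012).

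The 4 INK4 inhibitors split: 3 rose and the most abundant fell. CDKN2B (p15; chromosome 9, 22002903 to 22009363, minus strand) had 2.79 and 2.46 FPKM in the controls and 4.96 and 4.94 FPKM in the ETS1 libraries, a ratio of 1.89 and a change of 0.72 (SE 0.058, limma adjusted p 0.00101), the largest rise of the set. CDKN2C (p18; chromosome 1, 50960745 to 50974633, plus strand) had 15.8 and 16.1 FPKM in the controls and 23.8 and 24.5 FPKM in the ETS1 libraries, a change of 0.57 (SE 0.031, limma adjusted p 0.000534). CDKN2D (p19; chromosome 19, 10566462 to 10569059, minus strand) had 11.7 and 12.1 FPKM in the controls and 14.5 and 15.3 FPKM in the ETS1 libraries, a change of 0.30 (SE 0.038, limma adjusted p 0.00297). No control value of these 3 genes reached an ETS1 value. CDKN2A (chromosome 9, 21967753 to 21995301, minus strand), whose locus encodes both p16 and the p53 regulator ARF from different first exons, had 75.3 and 76.7 FPKM in the controls and 60.9 and 60.7 FPKM in the ETS1 libraries, a change of -0.32 (SE 0.026, limma adjusted p 0.00102); the table gives the locus a single value. Quantile normalization moved that change to -0.15 (adjusted p 0.00805, span 1.5e-17 to 0.00967), still past the threshold.

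The summed FPKM of the INK4 genes was 106 and 107 in the controls and 104 and 105 in the ETS1 libraries, a ratio of 0.984, while its makeup shifted more. The share of CDKN2A was 71.4% ± 0.11 in the controls and 58.01% ± 0.6 in the ETS1 libraries (SD, n = 2 each), that of CDKN2C 14.99% ± 0.036 in the controls and 23.1% ± 0.25 in the ETS1 libraries (SD, n = 2 each), and that of CDKN2B 2.47% ± 0.25 in the controls and 4.73% ± 0.053 in the ETS1 libraries (SD, n = 2 each). In each case the groups did not overlap. CDKN2A and CDKN2B are neighbours on chromosome 9 and moved in opposite directions, so the FPKM ratio of CDKN2A to CDKN2B was 26.9 and 31.2 in the controls and 12.3 and 12.3 in the ETS1 libraries. MTAP, which lies beside them on the opposite strand, had a change of 0.035 (SE 0.044, limma adjusted p 0.519). The antisense gene CDKN2B-AS1 (chromosome 9, 21994778 to 22121097, plus strand) spans CDKN2B without sharing exon bases with it and shares 7.88% of the exon bases of CDKN2A. Its change was 0.022 (SE 0.078, limma adjusted p 0.828).

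**Figure D2:**
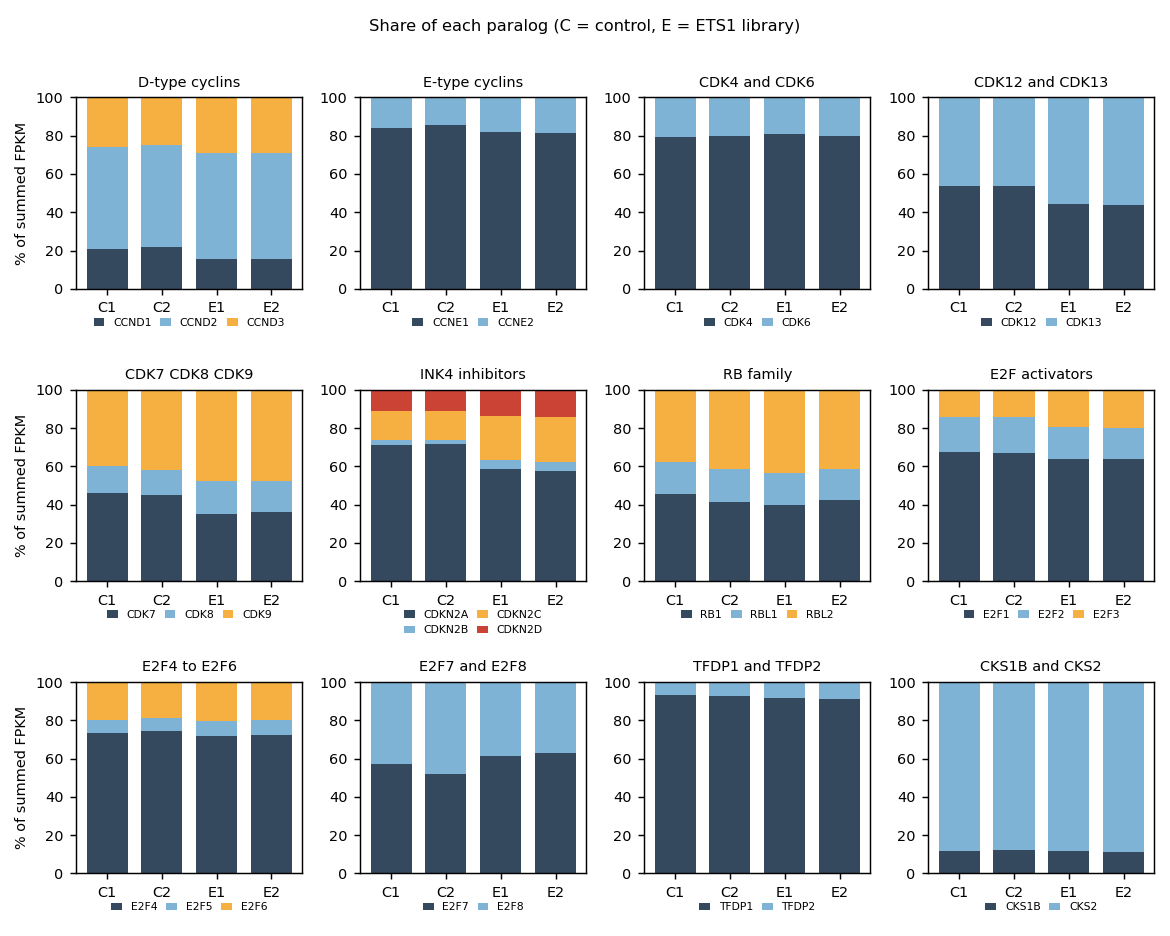
Share of each gene in the summed FPKM of its paralog group (percent, bars stacked to 100), per library; C1 and C2 are the controls and E1 and E2 the ETS1 libraries. The share of CDKN2A among INK4 genes goes from 71.4% to 58.0% and that of CDK13 against CDK12 from 46.1% to 55.9%, whereas CDK4 against CDK6 stays between 79.2% and 81.1%.

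SKP2 (chromosome 5, 36151989 to 36184319, plus strand), the receptor that delivers p27 to the SCF ligase, had 25.5 and 24.95 FPKM in the controls and 29.3 and 29.6 FPKM in the ETS1 libraries, a change of 0.22 (SE 0.028, limma adjusted p 0.00314). Its transcript and that of its substrate CDKN1B were thus both higher. CKS1B and CKS2 encode small adaptors that bind CDKs, and CKS1B is the cofactor SKP2 needs to bind p27. CKS2, the most abundant member in every library, had 214 and 205 FPKM in the controls and 207 and 211 FPKM in the ETS1 libraries, which overlapped, and its change was 0.00022 (SE 0.033, limma adjusted p 0.996). Quantile normalization made it a call, at 0.17 (adjusted p 0.0121, span 0.0121 to 0.997), and 4 other alternatives turned its sign. CKS1B had 28.2 and 28.9 FPKM in the controls and 27.7 and 26.1 FPKM in the ETS1 libraries, a change of -0.087 (SE 0.039, limma adjusted p 0.114). That change ran from -0.13 to -0.045 on leaving out 1 library and was -0.0046 under quantile normalization, and 6 pseudogenes named after it in the annotation can take or share its reads.

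Among the RB proteins, which hold E2F factors in check, RBL2 (p130; chromosome 16, 53433977 to 53491649, plus strand) had 11.4 and 12.2 FPKM in the controls and 15.005 and 15.03 FPKM in the ETS1 libraries, a change of 0.33 (SE 0.04, limma adjusted p 0.00277). RBL1 (p107) had 5.08 and 5.13 FPKM in the controls and 5.80 and 5.78 FPKM in the ETS1 libraries, and its change of 0.15 (SE 0.035, limma adjusted p 0.0172) was lost under 6 of 13 alternatives (adjusted p from 0.0172 to 0.15), including the authors' deposited table (0.15) and quantile normalization, which moved it to 0.093. RB1 had 13.6 and 12.2 FPKM in the controls and 13.7 and 15.3 FPKM in the ETS1 libraries. Both ETS1 values were higher than both controls, but within each group the libraries differed by almost as much, and the change of 0.15 (SE 0.072, limma adjusted p 0.127) did not pass. It ran from 0.079 to 0.23 on leaving out 1 library, with the lowest value without the second control and the highest without the first. It passed with voom on recovered reads (0.17, adjusted p 0.029, span 0.029 to 0.439). Summed FPKM of the 3 genes was 30.1 and 29.5 in the controls and 34.5 and 36.1 in the ETS1 libraries.

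The activator E2Fs, which drive genes of DNA synthesis, did not move together. E2F1 (chromosome 20, 33675683 to 33686404, minus strand), the most abundant E2F, had 61.2 and 60.2 FPKM in the controls and 49.3 and 49.4 FPKM in the ETS1 libraries, a change of -0.29 (SE 0.026, limma adjusted p 0.00119). E2F2 (chromosome 1, 23506430 to 23531220, minus strand) had 16.5 and 16.5 FPKM in the controls and 12.8 and 12.4 FPKM in the ETS1 libraries, a change of -0.36 (SE 0.031, limma adjusted p 0.00117). E2F3 (chromosome 6, 20401906 to 20493715, plus strand) had 12.8 and 13.02 FPKM in the controls and 14.8 and 15.6 FPKM in the ETS1 libraries, a change of 0.22 (SE 0.037, limma adjusted p 0.00661). The first 2 were lower and the third higher, with no overlap between groups. Summed FPKM of the activators was 90.5 and 89.7 in the controls and 76.9 and 77.5 in the ETS1 libraries, and the share of E2F3 in it was 14.3% ± 0.26 in the controls and 19.7% ± 0.63 in the ETS1 libraries (SD, n = 2 each). Quantile normalization moved the change of E2F1 to -0.15 (adjusted p 0.00672, span 2.3e-11 to 0.011).

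The atypical E2Fs, which bind DNA without a DP partner and repress E2F target genes, were both higher. E2F7 (chromosome 12, 77021247 to 77065580, minus strand) had 6.10 and 5.43 FPKM in the controls and 9.23 and 9.94 FPKM in the ETS1 libraries, a ratio of 1.66 and a change of 0.65 (SE 0.064, limma adjusted p 0.00156). E2F8 had 4.59 and 5.04 FPKM in the controls and 5.81 and 5.88 FPKM in the ETS1 libraries, a change of 0.24 (SE 0.05, limma adjusted p 0.0136), which was lost with no filter (adjusted p 0.058) and without the first or the second ETS1 library (0.0545 and 0.066; span 0.00213 to 0.066). The FPKM ratio of E2F1 to E2F7 was 10.03 and 11.1 in the controls and 5.34 and 4.97 in the ETS1 libraries.

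E2F4 (chromosome 16, 67192169 to 67198918, plus strand), which acts with RBL1 and RBL2 as a repressor in resting cells, had 27.8 and 29.3 FPKM in the controls and 24.1 and 24.98 FPKM in the ETS1 libraries, a change of -0.21 (SE 0.037, limma adjusted p 0.00815) that quantile normalization moved to -0.13 (adjusted p 0.0421, span 2.9e-05 to 0.0473). E2F5, its close relative, had 2.56 and 2.63 FPKM in the controls and 2.63 and 2.80 FPKM in the ETS1 libraries, which overlapped, with a change of 0.048 (SE 0.05, limma adjusted p 0.448). That change ran from 0.014 to 0.081 on leaving out 1 library and was 0.0064 under quantile normalization. E2F6, which represses without binding RB proteins, had 7.43 and 7.36 FPKM in the controls and 6.94 and 6.85 FPKM in the ETS1 libraries. Its change of -0.089 (SE 0.033, limma adjusted p 0.0695) did not pass, though it did under trimmed-mean scaling and quantile normalization (adjusted p 0.0403 and 0.023, span 0.023 to 0.285). Of the DP partners that E2F1 to E2F6 need to bind DNA, TFDP2 (chromosome 3, 141944428 to 142149544, minus strand) had 2.89 and 3.05 FPKM in the controls and 3.68 and 3.85 FPKM in the ETS1 libraries, a change of 0.26 (SE 0.048, limma adjusted p 0.00831). It lost the threshold without the second ETS1 library (adjusted p 0.0543, span 3.8e-05 to 0.0543). TFDP1, the more abundant of the pair, had 39.5 and 37.5 FPKM in the controls and 39.2 and 39.3 FPKM in the ETS1 libraries, which overlapped, with a change of 0.029 (SE 0.035, limma adjusted p 0.511). Under quantile normalization TFDP1 was called higher, at 0.14 (adjusted p 0.0213, span 0.0213 to 0.935), and without the second control its sign turned.

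E2F factors bind promoters of their own network, so the promoters of the set were searched for the E2F words TTTCCCGC, TTTGGCGC, TTTCGCGC and TTCCCGCC, on both strands, in windows of 300 bases around the transcript starts (RefSeq, GRCh38.p14). Neighbouring words can overlap, as TTTCCCGC and TTCCCGCC do. Promoters were found for 39 of the 46 members, and 7 of the 39 (17.9%) held a word, against 10.6% of 8924 tested genes with a promoter and 5.03% of all 35116 promoters. The only window of RB1 (chromosome 13, 48476200 to 48476499) lies inside the gene, which starts at 48303726 on the plus strand. The promoter at that start was not searched, although RB1 is counted among the 39 here and for the other words below. Of the 7 genes, E2F1, E2F2 and CDC25A were lower with ETS1, E2F3, RBL1 and CDKN2C were higher, and TFDP1 was not called. CDKN2C had 3 windows and E2F3 had 2, and not all of them held a word. A match describes the letters only. CDKN2C is not printed below, although its word and its call would also have qualified it. The 250 bases before the start are printed for 5 of the genes, because they hold E2F words and belong to genes that moved in both directions, 5′ to 3′ on the gene's strand with the E2F words in capitals.
E2F1 (chr20:33686386-33686635, minus strand): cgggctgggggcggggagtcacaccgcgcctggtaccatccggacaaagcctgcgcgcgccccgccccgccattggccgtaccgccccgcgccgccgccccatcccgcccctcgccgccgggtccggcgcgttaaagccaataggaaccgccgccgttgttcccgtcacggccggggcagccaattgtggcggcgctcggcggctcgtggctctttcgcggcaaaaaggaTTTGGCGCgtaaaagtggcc
E2F2 (chr1:23531234-23531483, minus strand): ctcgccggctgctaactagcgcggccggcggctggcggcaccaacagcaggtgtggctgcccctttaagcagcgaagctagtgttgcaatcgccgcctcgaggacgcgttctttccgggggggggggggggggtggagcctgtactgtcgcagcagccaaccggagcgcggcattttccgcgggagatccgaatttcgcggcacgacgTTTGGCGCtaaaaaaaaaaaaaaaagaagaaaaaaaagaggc
CDC25A (chr3:48188418-48188667, minus strand): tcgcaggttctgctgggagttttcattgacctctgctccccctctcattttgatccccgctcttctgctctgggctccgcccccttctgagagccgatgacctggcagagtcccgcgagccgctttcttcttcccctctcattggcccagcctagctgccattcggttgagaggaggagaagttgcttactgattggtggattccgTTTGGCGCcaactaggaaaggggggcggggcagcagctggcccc
E2F3 (chr6:20401629-20401878, plus strand): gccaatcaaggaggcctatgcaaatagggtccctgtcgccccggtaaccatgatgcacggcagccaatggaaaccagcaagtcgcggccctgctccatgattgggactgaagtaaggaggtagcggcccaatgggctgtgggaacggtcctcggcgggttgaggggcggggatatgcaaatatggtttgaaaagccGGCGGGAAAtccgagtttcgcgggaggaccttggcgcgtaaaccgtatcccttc
RBL1 (chr20:37095998-37096247, minus strand): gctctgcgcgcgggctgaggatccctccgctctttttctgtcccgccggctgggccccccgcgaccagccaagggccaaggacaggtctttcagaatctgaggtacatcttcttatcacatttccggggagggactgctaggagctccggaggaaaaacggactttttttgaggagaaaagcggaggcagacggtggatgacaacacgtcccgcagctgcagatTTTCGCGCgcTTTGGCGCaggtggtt
The word TTTGGCGC was found in 4 of these promoters, with its last base 13 bases before the start in E2F1, 35 in E2F2, 37 in CDC25A and 9 in RBL1, which also held TTTCGCGC. The first 3 of these genes were lower with ETS1 and RBL1 was higher. In E2F3 the match was on the opposite strand and joined TTTCCCGC with TTCCCGCC.

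The ETS word CCGGAAGT, an optimal site of the ETS family, was in the windows of 2 of the 39 members (5.13%), CCNT1 and CDK9, against 10.3% of tested genes with a promoter. They encode the subunits of one complex, and only CCNT1 was called. Their words are shown in capitals within 30 bases of the gene's strand.
CCNT1 (chr12:48716835-48716864, minus strand): cgaggtgcattCCGGAAGTaggtcctttga
CDK9 (chr9:127786004-127786033, plus strand): ggggtcggcgccgcgaggCCGGAAGTggcc
The CHR word TTTGAA, which the repressive DREAM complex uses at late cell cycle genes, was in 8 of the 39 (20.5%) and in 13.3% of tested genes with a promoter.

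The cyclins and kinases of transcription changed in both directions, with all 7 of these cyclins and 3 of 5 kinases called, beside 59.1% of all tested genes. The share among the kinases is near that background, and 2 of the cyclin calls, those of CCNC and CCNL2, were lost under some alternatives, as given with their values. In the CDK-activating kinase, which also serves the general factor TFIIH, the kinase and its cyclin fell. CDK7 (chromosome 5, 69234795 to 69277430, plus strand) had 22.4 and 22.8 FPKM in the controls and 14.9 and 15.5 FPKM in the ETS1 libraries, a change of -0.54 (SE 0.033, limma adjusted p 0.00064). Its partner CCNH (cyclin H; chromosome 5, 87318416 to 87413019, minus strand) had 12.8 and 12.5 FPKM in the controls and 9.65 and 9.66 FPKM in the ETS1 libraries, a change of -0.36 (SE 0.032, limma adjusted p 0.00122). CCNH shares 22.3% of its exon bases with the opposite-strand genes RASA1 and AC018754.1 together, and RASA1 rose by 0.42. The assembly subunit of this kinase, MNAT1, is no member of the set and was named after its values were seen. It had 9.46 and 8.22 FPKM in the controls and 8.28 and 8.01 FPKM in the ETS1 libraries, which overlapped, with a change of -0.10 (SE 0.068, limma adjusted p 0.244).

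CDK12 and CDK13, which pair with cyclin K and keep long genes transcribed, rose while cyclin K fell. CDK13 (chromosome 7, 39949646 to 40099580, plus strand) had 4.23 and 4.12 FPKM in the controls and 7.32 and 7.59 FPKM in the ETS1 libraries, a ratio of 1.78 and a change of 0.71 (SE 0.039, limma adjusted p 0.000535). CDK12 (chromosome 17, 39461511 to 39564907, plus strand) had 4.92 and 4.83 FPKM in the controls and 5.88 and 5.87 FPKM in the ETS1 libraries, a change of 0.23 (SE 0.036, limma adjusted p 0.00543). CCNK (cyclin K; chromosome 14, 99481169 to 99535044, plus strand) had 14.1 and 13.5 FPKM in the controls and 9.47 and 9.47 FPKM in the ETS1 libraries, a change of -0.50 (SE 0.034, limma adjusted p 0.000751). The controls were above the ETS1 libraries for CCNK and below them for both kinases. The share of CDK13 in the FPKM of the kinase pair was 46.1% ± 0.12 in the controls and 55.9% ± 0.66 in the ETS1 libraries (SD, n = 2 each). Per length, CDK12 was thus the higher of the pair in the controls and CDK13 in the ETS1 libraries, whereas in reads, not scaled by length, CDK13 made up 37.4% and 46.98% and CDK12 stayed the larger in both groups. For CCNK, 59.5% of the exon bases are also exons of CCDC85C on the opposite strand; CCDC85C had 1.95 and 2.05 FPKM in the controls and 1.88 and 1.87 FPKM in the ETS1 libraries, a change of -0.06 (SE 0.052, limma adjusted p 0.364).

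In P-TEFb, which releases paused polymerase, the kinase CDK9 had 19.3 and 21.2 FPKM in the controls and 20.3 and 20.6 FPKM in the ETS1 libraries, overlapping between groups, with a change of 0.014 (SE 0.051, limma adjusted p 0.826), while both of its cyclins rose. CCNT1 (cyclin T1; chromosome 12, 48688458 to 48716998, minus strand) had 8.56 and 8.83 FPKM in the controls and 11.04 and 11.1 FPKM in the ETS1 libraries, a change of 0.31 (SE 0.033, limma adjusted p 0.00178). CCNT2 (cyclin T2; chromosome 2, 134918235 to 134959342, plus strand) had 4.80 and 4.84 FPKM in the controls and 6.71 and 7.53 FPKM in the ETS1 libraries, a change of 0.48 (SE 0.058, limma adjusted p 0.00258). The 2 ETS1 libraries differed more for CCNT2 than the controls did, but stayed above them.

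CDK8 and cyclin C form the kinase module of Mediator. CDK8 had 6.84 and 6.61 FPKM in the controls and 7.15 and 6.99 FPKM in the ETS1 libraries, a change of 0.063 (SE 0.037, limma adjusted p 0.196), and CCNC had 11.95 and 11.5 FPKM in the controls and 12.5 and 13.2 FPKM in the ETS1 libraries, with a change of 0.13 (SE 0.041, limma adjusted p 0.0475) that was lost under 9 of 13 alternatives (adjusted p from 0.0149 to 0.236). For CDK8 the change ran from 0.042 to 0.084 on leaving out 1 library and was 0.010 under quantile normalization. The L-type cyclins, which act with CDK11 in splicing, were higher. CCNL1 (chromosome 3, 157146508 to 157160760, minus strand) had 13.9 and 13.9 FPKM in the controls and 16.9 and 17.5 FPKM in the ETS1 libraries, a change of 0.29 (SE 0.032, limma adjusted p 0.00207). CCNL2, among the 3 most abundant members, had 75.3 and 74.9 FPKM in the controls and 81.01 and 80.8 FPKM in the ETS1 libraries, and its change of 0.11 (SE 0.024, limma adjusted p 0.0175) moved to 0.26 under quantile normalization and was lost with the replicate block and without either ETS1 library (adjusted p from 0.00147 to 0.108 over all alternatives). CDK5, a kinase best known from neurons, had 18.4 and 18.04 FPKM in the controls and 17.02 and 16.4 FPKM in the ETS1 libraries. Its change of -0.12 (SE 0.033, limma adjusted p 0.0315) was lost under 8 of 13 alternatives, with adjusted p from 0.0192 to 0.185, and quantile normalization moved it to -0.078.

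**Figure D3:**
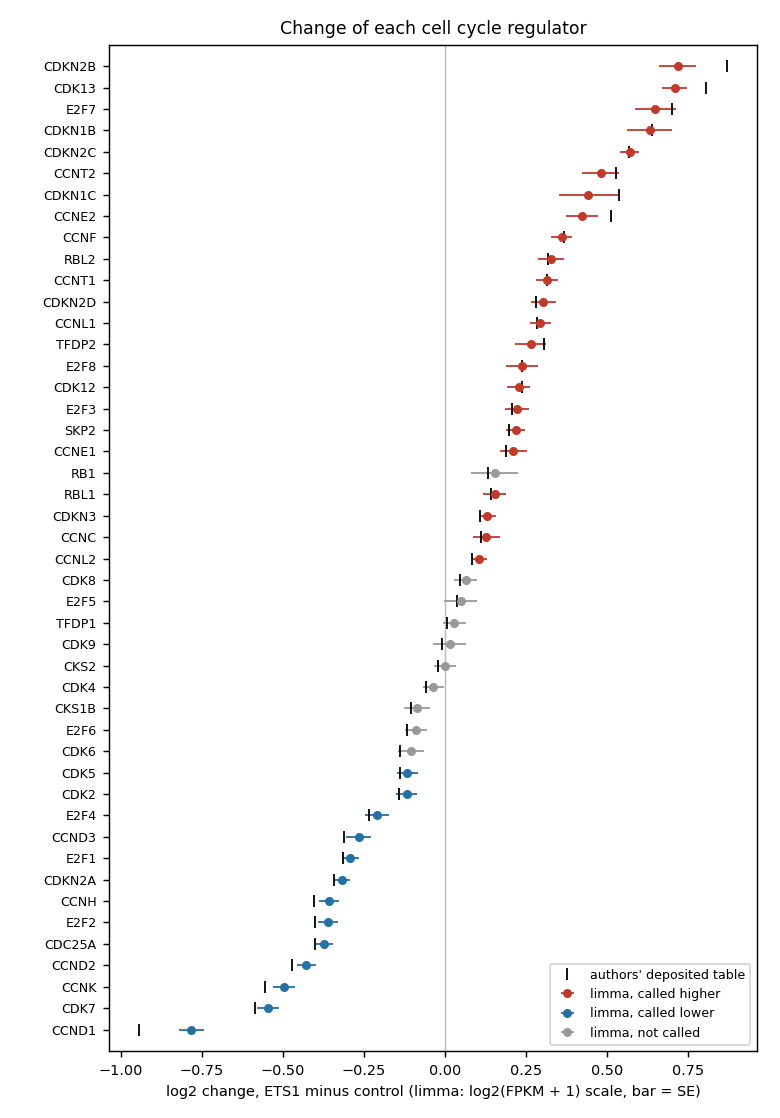
log2 change of each regulator, ETS1 minus control, with its standard error (points; red called higher, blue called lower, grey not called) and the log2 fold change of the authors' deposited table (black ticks). The values run from -0.78 for CCND1 to 0.72 for CDKN2B, and the ticks lie on the same side of 0 as the points for all members except CDK9 and CKS2.

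In the authors' deposited table, higher values were called for 20 of the 46 and lower values for 14 (adjusted p under 0.05), where 51.2% of its 15683 genes with an adjusted p were called. Of these, 33 were also called by limma in the same direction and 0 in the opposite one. RBL1, CDKN3 and CCNC were called by limma alone and CDK6 in the authors' deposited table alone. The log2 fold change in the authors' deposited table was -0.94 for CCND1 and 0.87 for CDKN2B, both larger in size than here, where 1 FPKM is added to each value before the log.

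Changes of the genes around each member, and of genes of like length, were set beside these results. Of the 30 called members with at least 5 tested protein-coding neighbours within 1 Mb, 23 had a neighbour median on the same side of 0, and for 26 the member's own change was the larger in size. The count of 26 was favoured by the choice, since called members have sizeable changes and a median over several genes is drawn towards 0. The same shares over all called genes were not counted. For 9 of these 30 members the neighbour median was at least 0.2 in size on the same side. These included CCNE2 (neighbour median 0.57, 8 of 9 neighbours higher), CCNL1 (0.53), E2F7 (0.38), CDKN1B (0.31), CDC25A (-0.28, 32 of 39 lower) and CCNK (-0.24, 9 of 9 lower). Around CCND1 the median of 8 neighbours was -0.007, with 4 lower and 4 higher, and around CCND2 it was 0.076. CDK9 did not follow its region, where 37 of 41 neighbours were lower with a median of -0.49. Tested protein-coding genes in the quartile with the longest exon sum, 7497 bases or more, had a median log2 change of 0.13, and those in the shortest quartile, up to 3324 bases, had -0.10. Of the members, 7 were in the longest quartile, with 5 called higher and 1 lower, and 13 in the shortest, with 6 higher and 3 lower. Of all tested genes 30.7% were called higher and 28.4% lower. The shares called among all genes of each quartile were not counted, so these member counts are a description only. Exons shared with other genes also bear on single values: 18.2% of the exon bases of RBL2 and 16.8% of those of CDK2 lie opposite other genes' exons, and 13.8% of those of CCND2 are shared with AC008012.1 on its own strand. Pseudogenes named after members numbered 4 for E2F6 and 2 each for E2F3 and CCND3. The part that region, length and shared sequence have in the members' changes was not tested.

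**Figure D4:**
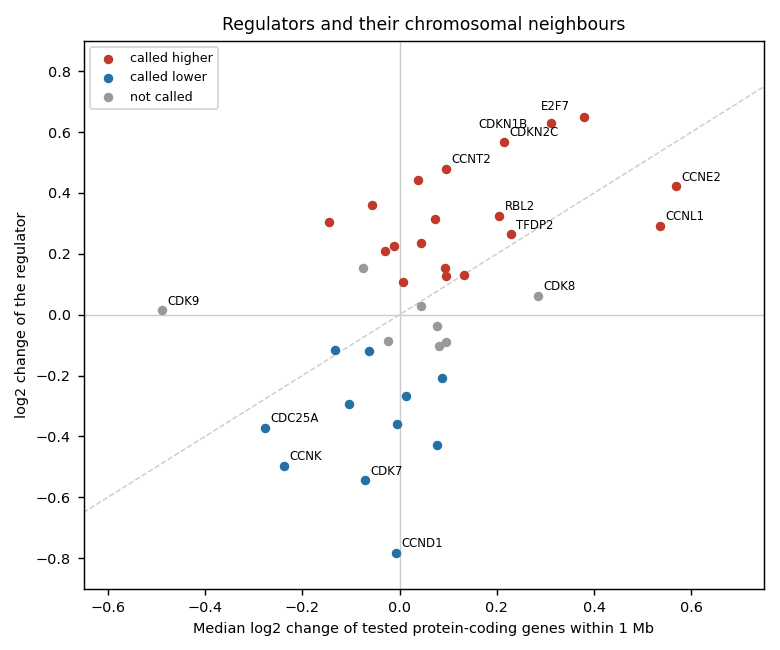
log2 change of each regulator with at least 5 tested protein-coding neighbours (vertical axis) against the median log2 change of those neighbours within 1 Mb (horizontal axis); the dashed line marks equality, red and blue mark regulators called higher and lower, grey those not called. CCND1 lies at -0.78 over a neighbour median near 0, while CCNE2 and CCNL1 lie below the line at neighbour medians above 0.5.

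Other genes of the pathway were taken from 5 lists with 115 genes, none of them members, of which 104 were tested. Of these 47 were called higher and 22 lower, or 66.3% against 59.1% of all tested genes, with a median log2 change of 0.086. The 47 fell to 30 without the second ETS1 library, and the 22 to 13 under quantile normalization. Each list's counts are read against the 30.7% of all tested genes that were called higher and the 28.4% called lower. These shares come from the fit with all 4 libraries. With a library left out fewer of all tested genes were called too, so counts from such fits cannot be read against them. Among other cyclins and CDKs 12 of 21 tested were higher (57.1%) and 2 lower (9.52%), and without the second ETS1 library 7 were higher. The list also holds the inhibitor CDKN1A, which is 1 of the 12 and neither a cyclin nor a CDK. The largest changes in that list were those of CDK19, the close relative of CDK8, with 0.63 (SE 0.04, limma adjusted p 0.000648), of CCNI, with 0.49 (SE 0.037, limma adjusted p 0.000904), and of the mitotic cyclin CCNB2, with -0.44 (SE 0.034, limma adjusted p 0.000886). CCNB2 lies on chromosome 15, where its neighbours had a median of -0.26.

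Partners and modifiers of CDKs had 12 of 19 tested genes higher (63.2%) and 2 lower (10.5%), against 30.7% and 28.4% of all tested genes. Of the 13 with a mean of at least 5 FPKM, 7 were higher, and 1 rather than 2 was lower without the first ETS1 library or under quantile normalization. CABLES2 rose by 0.53, and the Mediator kinase subunits MED13L and MED13 rose by 0.49 and 0.45, beside the kinase CDK8, which was not called. In the list on cyclin and inhibitor turnover 8 of 19 were higher and 3 lower, so 57.9% were called, near the 59.1% of all tested genes. Without the first ETS1 library 5 were higher. CUL4B rose by 0.38, FBXO5 (EMI1, an inhibitor of the anaphase-promoting complex) rose by 0.34, and FBXO4 changed by -0.34 (SE 0.037, limma adjusted p 0.00196). In the DREAM and MuvB list 5 of 10 were higher and 1 lower, again near the background of 59.1% called. Of the 7 with a mean of at least 5 FPKM, 3 were higher, and the 1 lower call was lost under quantile normalization. MYBL1 rose by 0.50, FOXM1, an activator of mitotic genes, rose by 0.46, and LIN54, the subunit that binds DNA, rose by 0.40.

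E2F target genes of the G1/S step had 10 of 35 higher (28.6%) and 14 lower (40%), against 30.7% and 28.4% of all tested genes, with a median of -0.025. This balance turned under quantile normalization, with 14 higher and 6 lower. Without the first ETS1 library 5 were higher and 12 lower, and without the second 5 and 9. The 3 largest changes were rises, of CLSPN (0.50), POLD3 (0.44) and RAD51AP1 (0.42), while the largest fall, named after its values were seen, was that of the replication licensing factor CDT1 (-0.34). The length and place of the genes were not compared between the lists, and no test of one list against another was made.

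**Figure D5:**
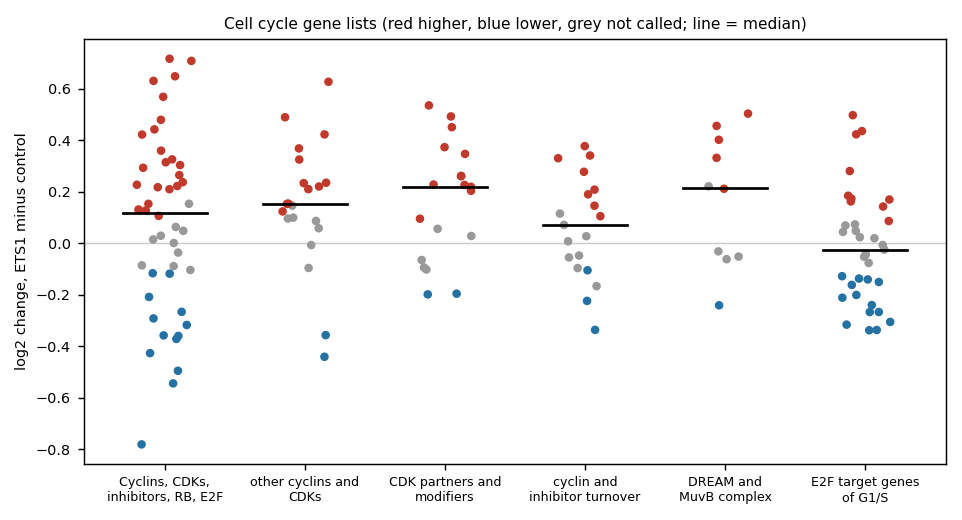
log2 change of each tested gene, ETS1 minus control, in the set of 46 regulators and in 5 lists of other cell cycle genes (points, spread sideways only for sight; red called higher, blue called lower, grey not called; the line is the median). The medians are 0.12 for the regulators, 0.22 for partners and modifiers and -0.025 for E2F target genes of G1/S.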

How the data were processed

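Bulk RNA-seq of 2 control and 2 ETS1 libraries of TE5 was used. The authors used HISAT2, HTSeq and DESeq2 with GRCh38 (hg38), per the submitters' processing notes. Versions and roles of these tools, annotation and use of strand are not given in the sources used here. FPKM per library was computed by the authors, per the labels, for 55764 gene names. A table of 16652 of these genes holds, per the file headers, the authors' mean normalized count (a signal averaged over libraries), log2 fold changes and standard errors on a log2 scale, and p-values with adjusted p-values. Both tables give the same FPKM (0 cells differ).

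Raw counts were not used, so limma 3.58.1 (R 4.3.3) was fitted to log2(FPKM + 1) over all genes whose FPKM averaged 1 or more (14306 genes, 25.7% of those listed), with a group term, an intensity trend, two-sided tests and Benjamini-Hochberg adjustment over all genes; the added 1 understates changes of low genes. Each gene had 2 residual degrees of freedom, and the shared prior added 2.84. Whole reads were recovered from the steps of the FPKM values and the authors' mean counts. Of the values, 99.7% fell within 0.05 of a whole number (10% by chance), and the members had 174 to 31782 reads per library. Replicates differed by more than counting noise (mean chi-square per gene 3.91 in both groups) and were counted as separate libraries. Such a spread does not show whether they came from separate cultures.

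In data simulated from the real means and depths (14260 genes), limma recovered 48.8% of genes changed 1.25-fold, 90.7% of those changed 1.5-fold and 97.7% of those changed 2-fold or 3-fold. Of the calls, 7.1% fell on unchanged genes. Only 43 tested genes were changed at each fold, and every gene was given the same replicate spread. In the real data 59.1% of tested genes were called, so these rates describe the simulated setting and not this comparison. The members, roles and lists were chosen with earlier results of these data known. By the rule for named genes, all members may be named, with full statistics for the 24 called members of largest change, and at most 3 genes per other list; statistics of the remaining members are given too. CCNP and CCNQ were matched as CNTD2 and FAM58A. CDKN1A, CDT1 and MNAT1 were named after their values were seen. Alternatives were the variance prior, the pseudocount, the filter, scaling, the replicate number as a block, the authors' deposited table, voom on recovered reads and leaving out each library.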

Additional observations from a re-analysis of the deposited data

How the results depend on the processing

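Of the 36 called members, 26 kept their direction and their call under each alternative run (13 settings, or 12 for the 5 members under 5 FPKM): CCND1, CCND2, CCND3, CDKN1B and the 4 INK4 genes were among them. The counts of 23 higher and 13 lower ran from 19 to 24 and from 11 to 15 over the alternatives with all 4 libraries, and from 17 to 22 and from 11 to 12 when 1 library was left out. A lone remaining library was then assumed to vary like the other group, and fewer of all tested genes were called as well. The 4 members that changed sign were not called where they did: CDK4 under quantile normalization (0.035), CDK9 under trimmed-mean scaling (-0.0068), in the authors' deposited table (-0.010) and on leaving out 1 library (-0.052 to 0.080), CKS2 under trimmed-mean scaling (-0.022), in the authors' deposited table (-0.023) and on leaving out 1 library (-0.032 to 0.032), and TFDP1 on leaving out 1 library (-0.0091 to 0.066). CKS2 and TFDP1 were called higher under quantile normalization (0.17 and 0.14). Of the other pathway genes, 47 higher and 22 lower went to 30 to 42 higher and 17 to 22 lower on leaving out 1 library, with 30 higher without the second ETS1 library, and to 13 lower under quantile normalization; the cause was not tested. With the replicate number as a block 20 members were higher and 11 lower. Deviations of same-numbered libraries had a correlation of -0.046 across genes, so the numbers gave no sign of pairing.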
